A study of Mus musculus with 3 samples.

Results

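10 genes of macrophage scavenger and related uptake receptors were followed across the lungs of 3 mice: Marco, Msr1, Cd36, Scarb1, Cd68, Olr1, Stab1, Cd163, Mrc1 and Cd14. They were chosen by name and are 10 of the 53342 genes in the count table. All 3 mice, called mouse 4, 5 and 6 after the last digit of their labels, were male C57Bl/6 and belong to 1 group. Each was given Mycobacterium abscessus microparticles into the trachea (50 µL, a dose equal to 1000000 bacteria), a challenge meant to raise granulomas. Each then received 5 µg of MIA-602, a blocker of the growth hormone-releasing hormone receptor, under the skin each day for 3 weeks before whole lung was taken for bulk RNA sequencing. Mice without the challenge or without MIA-602 were not analysed here, so the levels describe challenged and treated lungs and show no effect of either agent.

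Scavenger receptors are a loose family of surface proteins, grouped into classes by structure, that bind modified lipoproteins, dying cells and microbial surfaces and take them into the cell. In the lung, alveolar and interstitial macrophages use them to clear inhaled particles, surfactant lipid and bacteria, and mycobacterial lipids are among the known ligands of several. Some are not restricted to macrophages: Cd36 and Scarb1 are also made by capillary endothelium, and Stab1 and Mrc1 by sinusoidal and lymphatic endothelium.

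Library totals ran from 31579465 to 43845715 counts. Levels are CPM (counts per 1000000, scaled by TMM, a factor that evens out library composition), with the SD over 3 mice. To compare genes with each other, CPM was divided by kilobases of exon. All 10 genes passed the expression filter and reached 1 CPM in each mouse, as did 86.2% of the 17636 genes that passed. Markers of alveolar type 2 cells (5 of 5), alveolar macrophages (8 of 8) and monocytes and interstitial macrophages (9 of 9) also reached 1 CPM in each mouse. Libraries differed in skeletal muscle and squamous epithelium genes, which together held 0.581% of the counts of mouse 4, 0.223% of mouse 5 and 0.190% of mouse 6. They also differed in epithelial genes, lowest in mouse 4. The club cell list summed to 9014, 24583 and 21753 CPM in mice 4, 5 and 6, and the alveolar type 2 list to 20925.5, 28296 and 25481. Separate animals are known from the labels only. In whole tissue, fewer cells of a type and less RNA per cell cannot be told apart.

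The levels of the 10 receptors per kilobase covered most of the expressed range, from Cd68 at the top to Cd163 at the bottom. Cd68, a heavily glycosylated class D protein of macrophage late endosomes and lysosomes (ENSMUSG00000018774, chromosome 11, 69664213 to 69666153, build mm10), stood at 388, 196 and 239 CPM per kb in mice 4, 5 and 6. It ranked 151st of 17636 genes and made up 51.0% ± 6.73 of the summed level of the 10 receptors (SD, n = 3). Cd163, the class I receptor that clears haemoglobin bound to haptoglobin (ENSMUSG00000008845, chromosome 6, 124304656 to 124330527), had 158, 86 and 80 counts, or 0.672, 0.435 and 0.462 CPM per kb. It ranked 15443rd. In each lung Cd68 lay above Cd163, by 578-fold, 451-fold and 517-fold per kilobase, a mean log2 difference of 9.002 ± 0.18.

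Cd14, Cd36 and Marco formed the next tier. Cd14, a lipid-anchored co-receptor that hands bacterial lipopolysaccharide to Toll-like receptors (ENSMUSG00000051439, chromosome 18, 36725067 to 36726798), had 124, 78.7 and 92.1 CPM per kb. Cd36, a class B receptor for oxidised lipoproteins and long-chain fatty acids (ENSMUSG00000002944, chromosome 5, 17781690 to 17888801), had 65.7, 92.9 and 66.7. Their order was not stable: Cd14 was the higher of the pair in mice 4 and 6 and Cd36 in mouse 5 (log2 difference 0.38 ± 0.58). Marco, a class A receptor with a collagen-like stalk that marks resident alveolar macrophages (ENSMUSG00000026390, chromosome 1, 120474538 to 120505024), followed at 39.5, 23.8 and 45.6 CPM per kb, below Cd36 in 3 of 3 mice by 1.08 ± 0.77.

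The other 5 receptors above Cd163 lay close together when all annotated exons set the length, with means between 7.26 and 10.1 CPM per kb. Stab1, stabilin-1, a large class H receptor for debris and secreted matrix proteins (chromosome 14, 31139013 to 31168641), averaged 10.1 ± 0.572. Scarb1, the class B receptor SR-B1 that takes up cholesterol from high-density lipoprotein (chromosome 5, 125277087 to 125341094), averaged 9.81 ± 0.506. Olr1, the class E lectin-like receptor for oxidised low-density lipoprotein (chromosome 6, 129485244 to 129507165), averaged 8.76 ± 2.04. Msr1, the class A receptor SR-A1 (chromosome 8, 39581685 to 39642673), averaged 7.38 ± 1.496, and Mrc1, the mannose receptor, an endocytic C-type lectin (chromosome 2, 14229392 to 14332057), 7.26 ± 0.894. Of the neighbours in this order, Stab1 and Scarb1 (log2 difference 0.04 ± 0.15), Scarb1 and Olr1 (0.19 ± 0.38) and Msr1 and Mrc1 (0.01 ± 0.46) did not differ beyond their spread on this scale. By the longest transcript Scarb1 over Olr1 was 1.65 and Msr1 over Mrc1 0.57, both past that spread. Olr1 lay above Msr1 in 3 of 3 mice by 0.24 ± 0.06, but with the length of the longest transcript in place of all exons Msr1 was the higher, since the annotated exons of Msr1 sum to 6344 bp and its longest transcript is 3636 bp. For Scarb1 these lengths were 8500 and 3093 bp, and by the shorter one it lay above Stab1. Marco then exceeded Scarb1 by a log2 difference of 0.38, against 1.84 ± 0.57 by all exons, so the place of Scarb1 in this group depends on the length used.

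**Figure D1:**
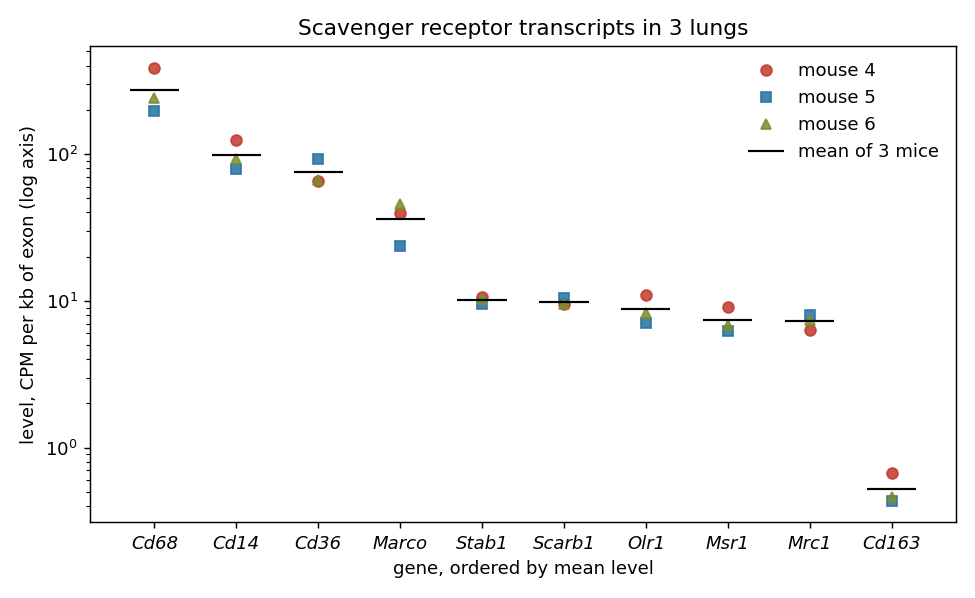
Level of each receptor in each mouse, in CPM per kilobase of exon on a log axis; points are mice and bars the mean of 3 mice. Cd68 is highest in every mouse, 5 receptors from Stab1 to Mrc1 lie at means of 7.26 to 10.1, and Cd163 lies apart below them.

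Members of a class differed in level, by amounts that depend on the length used. Marco exceeded Msr1, the other class A receptor, by 2.26 ± 0.42 on the log2 scale per kilobase (4.35-fold, 3.81-fold and 6.68-fold in mice 4, 5 and 6). Cd36 exceeded Scarb1, the other class B receptor, by 2.92 ± 0.21 (6.86-fold, 8.94-fold and 7.06-fold). By the longest transcript these mean differences were smaller, 1.46 (2.75-fold) for Marco over Msr1 and 1.54 (2.91-fold) for Cd36 over Scarb1. Mrc1 and Cd163, which are both used as surface markers of alternatively activated macrophages, differed by 3.81 ± 0.52, with Mrc1 higher by 9.36-fold, 18.5-fold and 16.1-fold. Over the 45 pairs that 10 genes make, 39 had the same order in all 3 mice, and 5 of the 9 neighbouring pairs did. These differences were given no call: with 3 mice, the exact two-sided sign-flip permutation test used for them cannot go below p = 0.25.

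Between mice the receptors followed different orders. Cd68, Cd14, Olr1, Msr1, Cd163 and Stab1 were highest in mouse 4, then mouse 6, then mouse 5. That is 6 of 10, against 19.7% of all tested genes with that order and 33.4% that were highest in mouse 4. Cd36 and Mrc1 ran the opposite way, highest in mouse 5 and lowest in mouse 4. Scarb1 was also highest in mouse 5 (3 of 10 in all, against 36.4% of tested genes), and Marco alone was highest in mouse 6 (30.2% of tested genes). In all, 7 of the 10 were lowest in mouse 5, where 36.8% of tested genes were.

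In CPM, Cd68 stood at 488, 247 and 301 in mice 4, 5 and 6. The level in mouse 4 was 1.98 times that in mouse 5, and the counting intervals of the 3 libraries (95% exact Poisson, 481 to 494, 242 to 252 and 295 to 307) did not overlap. Cd14 stood at 215, 136 and 159.5 CPM, 1.57-fold from highest to lowest. Olr1 had 39.3, 25.2 and 29.3 CPM and Msr1 57.5, 39.5 and 43.3, so that mouse 4 lay above both other libraries by more than counting error. Cd163 had 3.67, 2.38 and 2.52 CPM, and at this depth its intervals in mice 4 and 6 overlapped, with a lower bound of 3.12 in mouse 4 and an upper bound of 3.14 in mouse 6. Its intervals in mice 5 and 6 (upper bound 2.94 in mouse 5, lower bound 2.0005 in mouse 6) overlapped as well.

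Stab1 and Scarb1 were the steadiest of the receptors. Stab1 stood at 109, 97.5 and 106 CPM, a coefficient of variation (SD over mean) of 5.66%, and its counting intervals in mice 4 and 6 overlapped. Part of its count may not be its own: 112 bases of its exons overlap those of Nt5dc2 on the opposite strand, which had 853, 890 and 618 counts against 4684, 3525 and 3365 for Stab1. Scarb1 stood at 81.4, 88.3 and 80.4 CPM, a coefficient of variation of 5.16%. Mice 4 and 6 did not differ beyond counting error there either.

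Cd36 was set apart in mouse 5. It stood at 236, 333 and 239.6 CPM in mice 4, 5 and 6, and only mouse 5 lay outside the others by more than counting error. Mrc1 had 40.1, 51.3 and 47.3 CPM, lowest in mouse 4. Marco had 76.0, 45.8 and 87.8 CPM, a coefficient of variation of 31.0%, so mouse 5 held the least Marco and the most Cd36.

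Over the 10 receptors the median log2 ratio of the highest to the lowest mouse, on log2(CPM + 0.5), was 0.53, against 0.28 over all 17636 genes tested. Leaving out a mouse can only keep or lower this ratio, and no such value was taken over all genes. The receptors' median was 0.17 without mouse 4, 0.32 without mouse 5 and 0.53 without mouse 6. None of the 10 passed 2-fold, as 3.32% of tested genes did, and 4 passed 1.5-fold (Cd68, Marco, Cd14 and Olr1), as 15.6% did. Cd163, at 1.54-fold in CPM, fell short only through the added 0.5. The 1.5-fold limit was chosen after the values were seen. In edgeR's quasi-likelihood fit, no gene had a spread above the trend of genes of like abundance after Benjamini-Hochberg adjustment (0 of 17636, 0%). Adjusted p ran from 0.955 to 0.997 over the receptors and was 0.806 at its lowest over all genes. The 8 skeletal muscle markers, all past 2-fold, were not called either, so the lack of a call does not show that a spread was ordinary. At an unadjusted p under 0.05 there were 867 genes (4.92%), Marco and Cd68 the receptors among them. DESeq2 marked 104 genes as dispersion outliers (0.59%) and 0 of the 10.

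**Figure D2:**
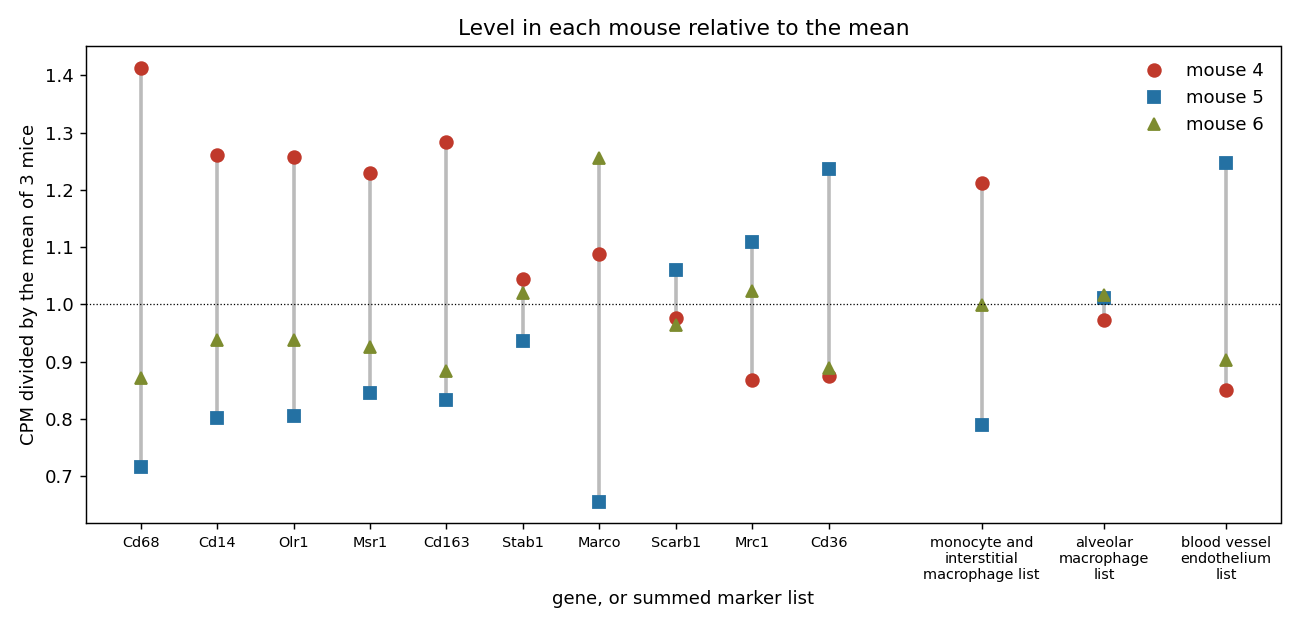
Level of each receptor in each mouse divided by its mean over 3 mice, in CPM, and the same for the summed counts of 3 marker lists; the grey line joins lowest and highest. Cd68, Cd14, Olr1, Msr1, Cd163 and, by less, Stab1 have mouse 4 on top, as the monocyte and interstitial macrophage list has. Cd36, Mrc1, Scarb1 and the blood vessel endothelium list have mouse 5 on top, and Marco has mouse 6.

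Marker genes of the cells known to make these receptors also differed between the lungs. The monocyte and interstitial macrophage list, led by the complement genes C1qa at 698, 425 and 581 CPM and C1qb at 509, 312 and 419, summed to 2442, 1592 and 2014 CPM. In this list 8 of 9 genes were highest in mouse 4, and the exception was the chemokine receptor Ccr2. The alveolar macrophage list, led by Chil3 at 352, 429.9 and 399 CPM and Itgax at 299, 212 and 275, summed to 948, 984 and 989 CPM, with 3, 2 and 3 of its 8 genes highest in mice 4, 5 and 6. The blood vessel endothelium list, led by the junction genes Pecam1 at 404, 545 and 426 CPM and Cdh5 at 323, 415 and 299, summed to 1207, 1768 and 1281 CPM, and all 8 of its genes were highest in mouse 5. Of all tested genes, 33.4%, 36.4% and 30.2% were highest in mice 4, 5 and 6. No defining marker of these lists was at 0 in the libraries. Per 100 counts of both macrophage lists together, 5 of the 10 receptors were highest in mouse 4, against 8.95% of tested genes. The lists together were themselves highest in mouse 4 (3390, 2575 and 3003.5 CPM in mice 4, 5 and 6). Dividing by them lowers the share of all genes highest there, which was 33.4% in CPM. On this ratio, taken without the added 0.5, 4 receptors passed 1.5-fold (Marco, Cd36, Mrc1 and Cd68), against 36.4%.

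Dividing each receptor by the summed counts of a list separated the receptors further, a comparison chosen after the values were seen. Per 100 counts of the monocyte and interstitial macrophage list, Cd14 stood at 8.78, 8.56 and 7.92 in mice 4, 5 and 6, Olr1 at 1.61, 1.58 and 1.46, Msr1 at 2.36, 2.48 and 2.15, and Cd163 at 0.150, 0.149 and 0.125. The coefficients of variation of Cd14, Olr1, Msr1 and Cd163 were 5.33%, 5.33%, 7.22% and 10.01%, against 23.6%, 23.3%, 20.3% and 24.7% in CPM. Cd68 was again highest in mouse 4, at 20.0, 15.5 and 14.9, a coefficient of variation of 16.5% against 36.7%. For these 5 genes this list gave the lowest coefficient of variation of the 18 marker lists. Its sum is weighted to its most abundant genes: C1qa, C1qb and C1qc averaged 568, 413 and 412 of 2016 CPM. While 5 of its 9 genes passed 1.5-fold between mice, Ccr2 (114, 121 and 115 CPM) and Cx3cr1 (46.3, 41.9 and 45.7) differed little. The ratios therefore do not describe the receptors against each marker of these cells.

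Cd36 behaved otherwise. Per 100 counts of the monocyte and interstitial macrophage list it stood at 9.66, 20.9 and 11.9, a coefficient of variation of 42.2%. Per 100 counts of the blood vessel endothelium list it stood at 19.5, 18.9 and 18.7, a coefficient of variation of 2.34% against 20.5% in CPM, the lowest that the 18 lists gave for it. Other cells can make Cd36: the adipocyte list summed to 87.1, 37.3 and 67.6 CPM, the platelet list to 26.5, 51.7 and 32.3 and the skeletal muscle list to 5540, 2057 and 1767 CPM.

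Mrc1 varied by 12.0% per endothelial count, 33.0% per count of the monocyte and interstitial list and 12.3% in CPM. For Mrc1 the blood vessel list came 5th of the 18, behind the alveolar macrophage, alveolar type 2, fibroblast and lymphatic endothelium lists. The lymphatic endothelium list, led by Ccl21a at 75.2, 86.6 and 88.0 CPM and Lyve1 at 49.9, 105 and 70.0, summed to 181, 253 and 212 CPM. Of its 6 genes, 2, 3 and 1 were highest in mice 4, 5 and 6. Stab1 and Scarb1 varied more by either denominator (15.8% and 26.5% per count of the monocyte and interstitial list, 24.3% and 15.1% per endothelial count) than in CPM. Each coefficient rests on 3 mice, a list of 18 denominators leaves room for a close match by chance, and the part of cell makeup in these differences was not tested.

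**Figure D3:**
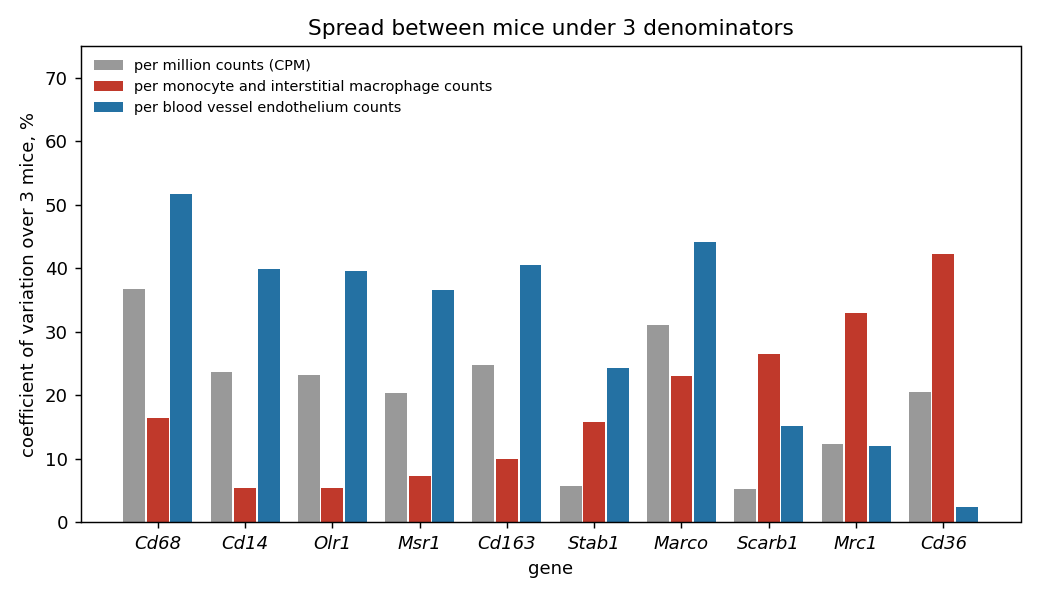
Coefficient of variation over 3 mice of each receptor in CPM (grey), per count of the monocyte and interstitial macrophage list (red) and per count of the blood vessel endothelium list (blue). Of the bars shown, the red is the lowest for Cd68, Cd14, Olr1, Msr1, Cd163 and Marco, and the blue bar for Cd36 is 2.34%. For Marco the list of the red bar came only 6th of the 18 marker lists.

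Upstream sequences are shown for 4 receptors: Cd68 and Olr1, both highest in mouse 4, Marco, highest in mouse 6, and Mrc1, highest in mouse 5. They come from RefSeq (GRCm38.p6) and run 5′ to 3′ up to the transcript start, as chr11:69666171-69666420 (minus strand) for Cd68, chr6:129507166-129507415 (minus) for Olr1, chr1:120505025-120505274 (minus) for Marco and chr2:14229164-14229391 (plus) for Mrc1. Capitals mark GAGGAA on either strand, the purine-rich core bound by ETS factors such as the macrophage factor PU.1, and TGANTCA, the core of the AP-1 site.
Cd68: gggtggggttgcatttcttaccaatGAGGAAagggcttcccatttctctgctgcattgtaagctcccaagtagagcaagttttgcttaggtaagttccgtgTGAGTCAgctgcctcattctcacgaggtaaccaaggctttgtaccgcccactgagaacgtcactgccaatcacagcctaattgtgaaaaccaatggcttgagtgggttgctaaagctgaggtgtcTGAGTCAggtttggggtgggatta
Olr1: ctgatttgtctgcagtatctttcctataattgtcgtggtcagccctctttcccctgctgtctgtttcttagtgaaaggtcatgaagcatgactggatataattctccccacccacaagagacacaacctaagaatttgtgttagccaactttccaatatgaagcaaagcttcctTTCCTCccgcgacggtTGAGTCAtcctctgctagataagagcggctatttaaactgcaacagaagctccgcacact
Marco: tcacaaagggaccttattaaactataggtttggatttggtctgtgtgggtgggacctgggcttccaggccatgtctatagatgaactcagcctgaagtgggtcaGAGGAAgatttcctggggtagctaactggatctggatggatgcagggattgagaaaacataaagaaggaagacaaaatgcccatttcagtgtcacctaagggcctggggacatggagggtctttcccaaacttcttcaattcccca
Mrc1: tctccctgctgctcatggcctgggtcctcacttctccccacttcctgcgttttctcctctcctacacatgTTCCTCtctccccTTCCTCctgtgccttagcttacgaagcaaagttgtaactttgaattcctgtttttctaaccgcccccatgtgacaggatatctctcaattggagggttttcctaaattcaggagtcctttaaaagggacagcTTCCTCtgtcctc

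Of the 10 receptors, 7 had an entry in the promoter table (Marco, Mrc1, Cd36, Cd163, Olr1, Cd68 and Stab1), and 250 bases before each start were searched on both strands, 228 for Mrc1. The Cd36 window (chr5:17835897-17836146, minus) lies inside the annotated gene span, so the bases before its outermost start were not searched. GAGGAA was found in 5 of the 7 (Cd68, Olr1, Marco, Mrc1 and Stab1), against 23.3% of 32851 promoters, and Mrc1 held it 3 times. TGANTCA was found in Cd68, 2 times, and in Olr1, against 6.75% of promoters. The longer ETS forms AGGAAGT (7.69% of promoters), which overlaps GAGGAA in part, and GAGGAAGT (2.44%), which contains both, gave 1 match, in Mrc1, and none. TTGCNNAA, a C/EBP-like core (9.56%), matched Cd68. No match in these windows was found for TGACNNNGC (the antioxidant response core, 10.2%), TTCNNNGAA (the STAT core, 7.02%), TATAAA (12.4%), ATTGCNNNA (6.09%) or AAACCACA (1.49%). Matches of letters are a description and not binding sites, and these 10 motifs were picked with the values known.

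Other receptors of the scavenger families were also expressed. Of 14 listed, 13 reached 1 CPM in each mouse, with a median of 14.9 ± 0.693 CPM per kb, against 10.2 ± 0.510 for the 10 receptors above and 4.48 over all genes tested. Ager, the receptor for glycated proteins that alveolar type 1 cells make in quantity, led at 920 ± 183 CPM per kb, followed by Cxcl16, a membrane-bound chemokine and lipoprotein receptor, at 169 ± 34.9 and Clec7a, the beta-glucan receptor Dectin-1, at 120 ± 22.7. Megf10, an engulfment receptor of glia, was the lowest, with 39, 15 and 17 counts. Of these 14 genes, 8 were highest in mouse 5 (36.4% of tested genes) and 5 in mouse 4 (33.4%).

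Receptors and bridging proteins for dying cells had a median of 20.1 ± 0.952 CPM per kb, with 11 of 12 at 1 CPM in each mouse. The bridging protein C1qa (546 ± 132 CPM per kb), the Axl and Mertk ligand Gas6 (101 ± 17.4) and milk fat globule protein Mfge8 (64.8 ± 7.67), which links dying cells to integrins, were the most abundant. Adgrb1 was the lowest at 18, 15 and 9 counts. In this list 9 of 12 genes were highest in mouse 4, against 33.4% of tested genes.

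Listed partners of Cd14 and Toll-like receptors were mostly highest in mouse 4: 9 of 10 were, against 33.4% of tested genes. The exception was the adaptor Myd88. Some of these differences were small: 4 of the 10 passed 1.5-fold, and Lbp differed by 1.09-fold. All 10 reached 1 CPM in each mouse, with a median of 9.73 ± 1.997 CPM per kb. Myd88 stood at 33.0 ± 2.95 CPM per kb, Tlr2, the receptor for bacterial lipopeptides, at 32.8 ± 10.8, and Lbp, which loads lipopolysaccharide onto Cd14, at 13.6 ± 0.594. The sorting adaptor Ticam2 was the lowest at 2.07 ± 0.632. In each of these lists, as in all those that follow and over all genes tested, 0 genes passed the edgeR spread test.

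Genes that handle the lipid taken up through Cd36 and Scarb1 had a median of 22.3 ± 1.87 CPM per kb, and 11 of 12 reached 1 CPM in each mouse. Apoe, the apolipoprotein that carries cholesterol out of macrophages, stood at 1113 ± 320.4 CPM per kb, the lipid droplet protein Plin2 at 66.0 ± 9.23 and the fatty acid binding protein Fabp5 at 57.6 ± 12.0. Pdzk1, the scaffold that holds Scarb1 at the surface of liver cells, had 12, 8 and 12 counts. In this list 8 of 12 genes were highest in mouse 4, against 33.4% of tested genes.

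Genes that clear haemoglobin and haem with Cd163 averaged between 1.12 and 2342 CPM per kb, against 0.523 ± 0.129 for Cd163. The ferritin subunits Fth1 and Ftl1 stood at 2342 ± 585 and 1681 ± 249.6 CPM per kb and haptoglobin, Hp, the plasma protein whose complex with haemoglobin Cd163 binds, at 634 ± 100.3. The iron exporter Slc40a1 was the lowest of the 9 at 1.12 ± 0.222. All 9 reached 1 CPM in each mouse, with a median of 58.5 ± 2.63 CPM per kb, and 5 were highest in mouse 4 (33.4% of tested genes). The libraries also held red cell transcripts, with an erythroid list sum of 1468, 3199 and 1811 CPM, highest in mouse 5.

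**Figure D4:**
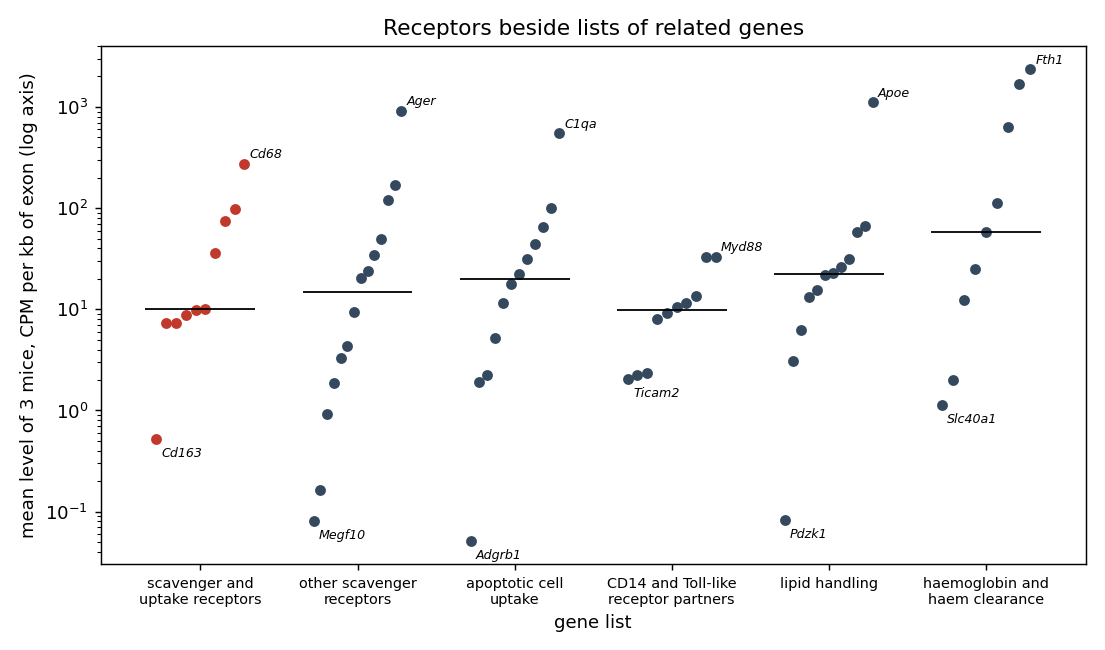
Mean level over 3 mice, in CPM per kilobase on a log axis, of the 10 receptors (red) and of genes in 5 related lists (dark); each point is a gene and each bar the median of its list. The highest and lowest gene of each list are named, with Cd163 as the lowest of the receptors and Fth1 as the highest gene of all lists shown.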

How the data were processed

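1 library per mouse was sequenced from whole-lung RNA of 3 mice, with the Nugen Universal mRNA Prep kit (labels). The tools listed by the submitters are STAR 2.5.2a, Trim Galore 0.6.2 and bcl2fastq 2.17, with mm10 as the build. How reads were counted, on which annotation and whether by strand is not stated in the labels or the file header. The deposited table holds unnormalized whole-number counts from the authors, with Ensembl identifiers, of which 53237 of 53342 were matched to GENCODE M21 (mm10) for symbols, 1-based coordinates and exon lengths.

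CPM used TMM factors of 0.983, 1.01 and 1.00 for mice 4, 5 and 6. Spread was tested in edgeR 4.0.16 (R 4.3.3; filterByExpr, robust legacy quasi-likelihood fit, intercept alone, upper-tail F test of dispersion over trend, 3.88 prior degrees of freedom, Benjamini-Hochberg, threshold 0.05), and was tested on simulated data. DESeq2 1.42.0, other scaling, filters, lengths, pseudocounts and leaving out each mouse were alternatives. Reads carry no molecular identifiers in these values, so Poisson intervals cover counting error only.

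The receptors, lists and marker genes were chosen with earlier results of these data known. Named beside the receptors are the 3 highest and the lowest gene per kilobase of each related list and the 2 highest of a marker list in CPM. Ccr2, Cx3cr1, C1qc, Nt5dc2 and Car4 were named after their values were seen. C1qa is in both a related list and a marker list. Protein sequences were not used here. With 3 mice, no gene was named for a pattern like that of a receptor.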

Additional observations from a re-analysis of the deposited data

How the results depend on the processing

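No paired analysis was possible because all samples belong to 1 group. The levels of the 10 receptors moved by less than 1 SD under either other scaling; leaving out 1 of 3 mice cannot move a mean by 1 SD and is no check of them. The number of receptors highest in mouse 4 was 6 with either other scaling and without the muscle and squamous lists in the totals (added after seeing the data), 7 without mouse 5 or 6, and 5 per count of the macrophage lists together. The median log2 spread of the receptors was 0.17 to 0.53 with each mouse left out in turn, and 1.13 per count of the blood vessel endothelium list (added after seeing the data).

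Genes with spread above the trend numbered 0 under other scaling or non-robust fitting, 0 to 13 with a mouse left out (13 without mouse 4, no receptor among them), 104 by DESeq2's outlier flag and 629 with no filter beyond 1 count, where 2 receptors, Marco and Cd68, were called; the cause was not tested. The order of neighbours per kilobase reversed for Olr1 over Msr1 (-0.56) and Stab1 over Scarb1 (-1.05) with the longest transcript, for Marco over Stab1 (-0.63), Olr1 over Msr1 (-0.59) and Cd14 over Cd36 (-0.67) with no length scaling, and without mouse 4 for Msr1 over Mrc1 (-0.24 to 0.20 over the mice left out) and Stab1 over Scarb1 (-0.0037 to 0.13). Depth limits Cd163 the most.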

Other observations

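Marco was highest in mouse 6 at 87.8 CPM, where 30.2% of tested genes were highest, and lowest in mouse 5 at 45.8. Marco and Scarb1 each had an order of mice that no other of the 10 receptors had. The T cell list, with 6 of 6 genes highest in mouse 6, summed to 289, 207 and 326 CPM in mice 4, 5 and 6, the B cell list to 299.5, 223 and 338, and the dendritic cell list, with 5 of 6 highest in mouse 6, to 167, 136 and 181. This order was not confined to immune cell lists: the cardiac muscle list, also with 5 of 6 genes highest in mouse 6, summed to 316, 148 and 325 CPM. The alveolar macrophage list, whose cells are known for Marco, summed to 948, 984 and 989 CPM, but its genes went both ways, with Itgax (299, 212 and 275 CPM) lowest in mouse 5 and Chil3 (352, 429.9 and 399) highest there. Car4, the 1 gene of this list past 2-fold, was also highest in mouse 5 (63.5, 130 and 89.8 CPM) and raises the sum there. All 8 genes of the blood vessel endothelium list were highest in mouse 5 too, and which cells made Car4 was not tested.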
